A study of Caenorhabditis elegans with 2 samples.

Results

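Of 38 splicing genes of Caenorhabditis elegans, 12 had a reproducibility-thresholded peak of tagged DUXL-1 in their promoter window, a share of 31.6% against 6.72% of all protein-coding genes. The genes were taken from the annotation by symbol alone, as every protein-coding gene named snr, lsm, prp or rsp with a number, plus uaf-1, uaf-2 and sfa-1, which gave 38 of 19973 nuclear protein-coding genes. They fall into 5 families: 7 Sm genes, 7 LSm genes, 13 PRP genes, 8 SR genes and 3 genes for factors that bind the branch point or the 3′ splice site. Each gene was represented by its strongest peak with a summit from 1000 bp upstream to 200 bp downstream of one of its transcript starts.

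The samples were 2 biological replicates of chromatin from whole L4 hermaphrodites, precipitated with an antibody against GFP and sequenced. The animals were of strain OP470, with the genotype unc-119(tm4063) III; wgIs470. The integrated transgene wgIs470 supplies DUXL-1, a homeodomain protein, with GFP and FLAG at its C-terminal end, and both replicates carry it. The animals were whole, so all tissues were pooled, and the level of the tagged protein relative to the endogenous one is not given by the labels. The authors' peak calling drew on a control library, which was not analysed here. A peak is a region enriched in this precipitation and need not mark binding by DUXL-1.

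Most introns are removed by the spliceosome, which is built from small nuclear ribonucleoproteins (snRNPs) on each transcript. Sm proteins form a ring around the RNA of most spliceosomal snRNPs, and LSm proteins form related rings, a nuclear one on the U6 RNA and a cytoplasmic one that acts in mRNA decay. PRP factors, named for yeast mutants in pre-mRNA processing, assemble and remodel the machine, and SR proteins bind exons and help to select splice sites. In nematodes the Sm ring also sits on the spliced leader RNA, which is joined to the 5′ ends of many mRNAs by trans-splicing, including those of downstream genes in operons.

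The sequences around the summits of the peaks on which the results turn are given first. Each is the plus strand of the RefSeq sequence of WBcel235 (the build also called ce11), read 5′ to 3′ and centred on the summit of the thresholded peak. They span up to 75 bp to each side, shortened at prp-19 so that no exon is included. Capitals mark any match, on either strand, to 6 words that were searched. These were the homeodomain-type word TAATTA, a second such word spelled TAATCA, the E-box word CACGTG, the dinucleotide repeat word GAGAGA, the TATA-type word TATAAA and the worm splice acceptor word TTTCAG. The strongest peak, a pair of bidirectional promoters, the only gene with a second thresholded peak and the weakest peak are among those shown.
prp-19 (chrIII:5172639-5172719): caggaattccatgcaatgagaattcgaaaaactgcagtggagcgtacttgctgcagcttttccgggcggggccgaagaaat
rsp-1 and rsp-2 (chrII:11453133-11453283): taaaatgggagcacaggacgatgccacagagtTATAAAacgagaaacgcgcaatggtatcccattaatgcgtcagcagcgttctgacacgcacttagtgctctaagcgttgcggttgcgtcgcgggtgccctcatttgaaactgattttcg
prp-8 (chrIII:8163981-8164131): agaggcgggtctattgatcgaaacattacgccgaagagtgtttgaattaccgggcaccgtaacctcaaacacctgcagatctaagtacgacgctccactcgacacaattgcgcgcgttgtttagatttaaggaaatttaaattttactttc
snr-4 (chrV:11980303-11980453): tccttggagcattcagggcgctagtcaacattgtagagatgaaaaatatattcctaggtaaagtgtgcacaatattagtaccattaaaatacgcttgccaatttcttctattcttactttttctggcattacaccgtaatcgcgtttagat
prp-40 (chrIII:9521845-9521995): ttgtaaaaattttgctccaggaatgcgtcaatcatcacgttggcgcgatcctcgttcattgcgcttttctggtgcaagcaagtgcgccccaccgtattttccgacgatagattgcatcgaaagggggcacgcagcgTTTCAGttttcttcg
rsp-5 and snr-3 (chrII:6489882-6490032): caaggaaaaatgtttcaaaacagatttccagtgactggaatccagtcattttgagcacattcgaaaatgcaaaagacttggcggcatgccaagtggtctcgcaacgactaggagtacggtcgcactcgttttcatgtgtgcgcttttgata
lsm-3 (chrIV:13388721-13388871): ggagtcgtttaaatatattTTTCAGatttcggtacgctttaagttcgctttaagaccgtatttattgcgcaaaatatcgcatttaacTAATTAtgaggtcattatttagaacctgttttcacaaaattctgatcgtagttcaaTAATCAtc
The rsp-1 and rsp-2 window held TATAAA, the prp-40 window held TTTCAG, and the lsm-3 window held both homeodomain-type words together with TTTCAG. The prp-19, prp-8, snr-4 and rsp-5 windows held none of the 6 words in the stretch shown.

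Over the longer stretch of 150 bp to each side of the summit, TATAAA occurred at 6 of the 10 distinct peaks of splicing genes, against 24.5% of the 1965 nuclear thresholded peaks. TTTCAG also occurred at 6 of 10, against 33.9%. TAATTA was present at 2 of 10 (rsp-6 and lsm-3), against 10.03% of nuclear peaks, and TAATCA at 3 of 10 (rsp-1 with rsp-2, prp-40 and lsm-3), against 13.3%. CACGTG and GAGAGA were found at 0 of 10, with 8.85% and 39.3% of nuclear peaks holding them. Over the 1028 thresholded peaks in a promoter window, the shares were 26.5% for TATAAA, 37.5% for TTTCAG, 11.9% for TAATTA and 13.2% for TAATCA. For CACGTG and GAGAGA they were 8.17% and 38.0%. Only the lsm-3 peak held both homeodomain-type words. A match describes the letters in the window and is no evidence of a binding site, and with 10 peaks these shares were not tested. The GC content of the same stretches had a median of 37.7%, from 30.6% at lsm-3 to 44.5% at rsp-1. The median was 40.5% over nuclear peaks and 38.9% over the 1028 thresholded peaks in a promoter window.

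The deposited lists set the scale of every value that follows. Signal is the enrichment that the authors' peak caller gave each region, on a scale that is not matched between lists. The thresholded list held 1980 peaks, of which 1965 were nuclear, and it equals the strongest regions of the list called on pooled replicates down to a signal of 65.0. The pooled list and both replicate lists held 30000 candidates each, with background regions included by design. No counts of reads were in the lists, so sequencing depth is unknown. The intervals given for shares are 95% Wilson intervals that cover counting error only. They treat genes as independent, which genes that share a peak are not.

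The 12 splicing genes with a thresholded peak shared 10 distinct peaks, and the interval of their share ran from 19.1% to 47.5%. A further 17 genes had a pooled candidate region below the threshold, and 9 had neither. Counting candidates as well, 29 of 38 splicing genes had a region (76.3%, interval 60.8% to 87.0%), against 39.2% of all protein-coding genes. The strongest peak overlapped one of the 1980 strongest candidates of each replicate at 7 of the 38 genes (18.4%, interval 9.22% to 33.4%), against 3.84% of all genes. That count depended on how overlap was defined. Where at least 50% of both regions had to be shared, only rsp-1 and rsp-2, on their 1 peak, passed (2 of 38, 5.26%, interval 1.46% to 17.3%), against 2.54% of all genes. The peaks of prp-8 (82 bp), prp-40 (96 bp) and prp-19 (133 bp) could not pass at any position. Each was narrower than 50% of an overlapping replicate 1 candidate, so this rule does not measure replicate agreement for them. Taken from the 1980 strongest candidates of each replicate alone, 10 splicing genes were found in replicate 1 (26.3%), against 6.29% of all genes, and 10 in replicate 2, against 6.02%. The same 7 genes were found in both of those lists: lsm-3, prp-8, prp-19, prp-40, rsp-1, rsp-2 and snr-4.

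By family, a thresholded peak was present at 3 of 7 Sm genes, 2 of 7 LSm genes, 3 of 13 PRP genes, 4 of 8 SR genes and 0 of 3 branch point and 3′ splice site genes. The interval of the SR share ran from 21.5% to 78.5% and that of the PRP share from 8.18% to 50.3%, so the families could not be ordered at these numbers. The 0 of 3 allows a share of up to 56.1%. With candidates included, every LSm gene (7 of 7) and every SR gene (8 of 8) had a region, as did 4 of 7 Sm genes, 8 of 13 PRP genes and 2 of 3 branch point and 3′ splice site genes.

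**Figure D1:**
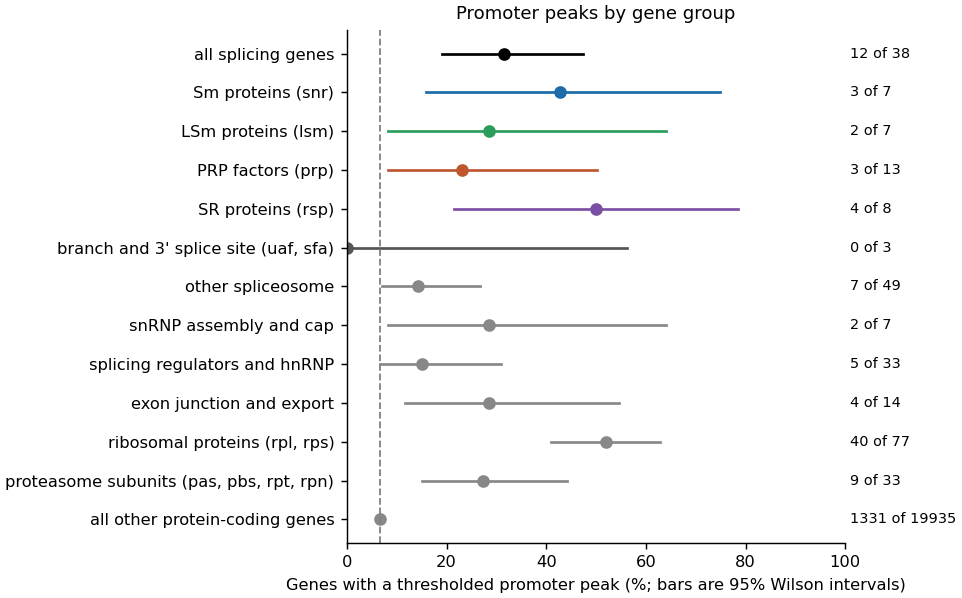
Share of genes with a thresholded promoter peak, in percent, for the splicing genes, their 5 families, 4 lists of other RNA-processing genes, 2 comparison lists and all other protein-coding genes, with 95% Wilson intervals and counts at the right. The dashed line is the share among all other protein-coding genes, and all splicing genes together lie at 31.6%.

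The Sm genes encode the ring found on most spliceosomal snRNPs and on the spliced leader snRNP. The gene snr-4, for SmD2, had the strongest Sm peak, with a signal of 144 (rank 428 of 1980; chrV:11980295-11980485), 655 bp upstream of its start. The overlapping candidate had a signal of 61.2 in replicate 1, with its summit 543 bp upstream, and 139 in replicate 2, where it ranked 109. Of the 12 genes, snr-4 alone held a second thresholded peak in its window, with a signal of 135 at 339 bp upstream (chrV:11980016-11980153). The replicates differed in which of the positions was stronger. The strongest candidate of replicate 1 had a signal of 83.5 at 341 bp upstream, near the second peak, whereas the only candidate of replicate 2 in the window lay at 671 bp upstream, near the first. Neither peak lay in the promoter window of another gene.

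The gene snr-2, for SmB, had a signal of 81.3 (rank 1280; chrI:13338901-13339180), with 33.1 in replicate 1 and 43.6 in replicate 2. Its summit lay 356 bp upstream of snr-2 and only 110 bp upstream of the divergent gene W08E3.4. The gene snr-3, for SmD1, had a signal of 74.9 (rank 1493; chrII:6489817-6490096), with 36.1 in replicate 1 and 19.6 in replicate 2. That region ranked 2047 in replicate 1 and 6837 in replicate 2, so it was below the strongest 1980 candidates of both, and its place in the thresholded list rests on the pooled call. The same peak is the promoter peak of the SR gene rsp-5, which is transcribed away from snr-3.

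The other 4 Sm genes had no thresholded peak. The gene snr-6, for SmE, had a candidate with a signal of 31.8 at 376 bp upstream, with 23.4 in replicate 1 and 12.6 in replicate 2. For snr-1 (SmD3), snr-5 (SmF) and snr-7 (SmG), no pooled candidate fell in the window. The nearest pooled summits were 947 bp, 1997 bp and 665 bp from a start, with signals of 53.0, 54.7 and 33.1. Those nearest to snr-1 and snr-7 lay downstream of the start, beyond the 200 bp of the window. The replicate lists differed from the pooled list at snr-1: replicate 1 had a candidate with a signal of 41.1 at 383 bp upstream, rank 1599, which is within its strongest 1980. In replicate 2 a candidate of 15.4 lay at 388 bp upstream of snr-1. Why the pooled list held no region there was not tested.

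Among the LSm genes, 2 passed the threshold, both near its lower end. The gene lsm-6, for a subunit shared by the nuclear and cytoplasmic rings, had a signal of 70.6 (rank 1684; chrI:1701022-1701301) at 199 bp upstream. Its candidates had signals of 47.5 in replicate 1, rank 1164, and 29.0 in replicate 2, rank 2731, with summits 131 bp and 87 bp upstream. The lsm-6 peak was also in the promoter window of Y71G12B.13, 943 bp upstream of the start of that gene. The gene lsm-3, also for a subunit of both rings, had a signal of 66.9 (rank 1875; chrIV:13388656-13388935), with 49.7 in replicate 1 and 36.9 in replicate 2. The lsm-3 call rests on 1 short annotated transcript with a span of 60 bp, whose start lies 180 bp downstream of the summit. Measured from the 5′ end of the gene, that summit lies 1593 bp inside it, in an intron, and with only the longest transcript of each gene lsm-3 lost its call and 11 splicing genes had one.

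The lsm-3 peak was the closest to the threshold from above, and lsm-8 was the closest from below. The gene lsm-8, for the subunit that sets the nuclear ring apart, had a candidate with a signal of 60.5 at 171 bp downstream of its start, with 21.4 in replicate 1 and 38.99 in replicate 2. The overlapping candidate of replicate 1 had its summit 103 bp upstream of the start, and that of replicate 2 lay 196 bp downstream. In replicate 2 alone the lsm-8 candidate was within the strongest 1980. The gene lsm-1, for the subunit that sets the cytoplasmic ring apart, had a candidate of 51.1 at 398 bp upstream, with 25.6 in replicate 1 and 10.9 in replicate 2. That region also lay 190 bp upstream of the divergent ribosomal protein gene rps-9.

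The remaining LSm genes had weaker candidates. The lsm-5 candidate had a signal of 39.8 at 682 bp upstream, with 34.7 in replicate 1 and 23.6 in replicate 2, and the lsm-4 candidate had 27.1. At lsm-7 the promoter candidate had a signal of 35.4 at 330 bp upstream, with 40.18 in replicate 1 and no overlapping candidate in replicate 2. A thresholded peak lay inside lsm-7, outside its promoter window, with a signal of 65.96 (rank 1927), 34.5 in replicate 1 and 58.3 in replicate 2. It fell in a coding exon 374 bp downstream of the lsm-7 start, and in the promoter window of the divergent dynactin gene dnc-1.

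**Figure D2:**
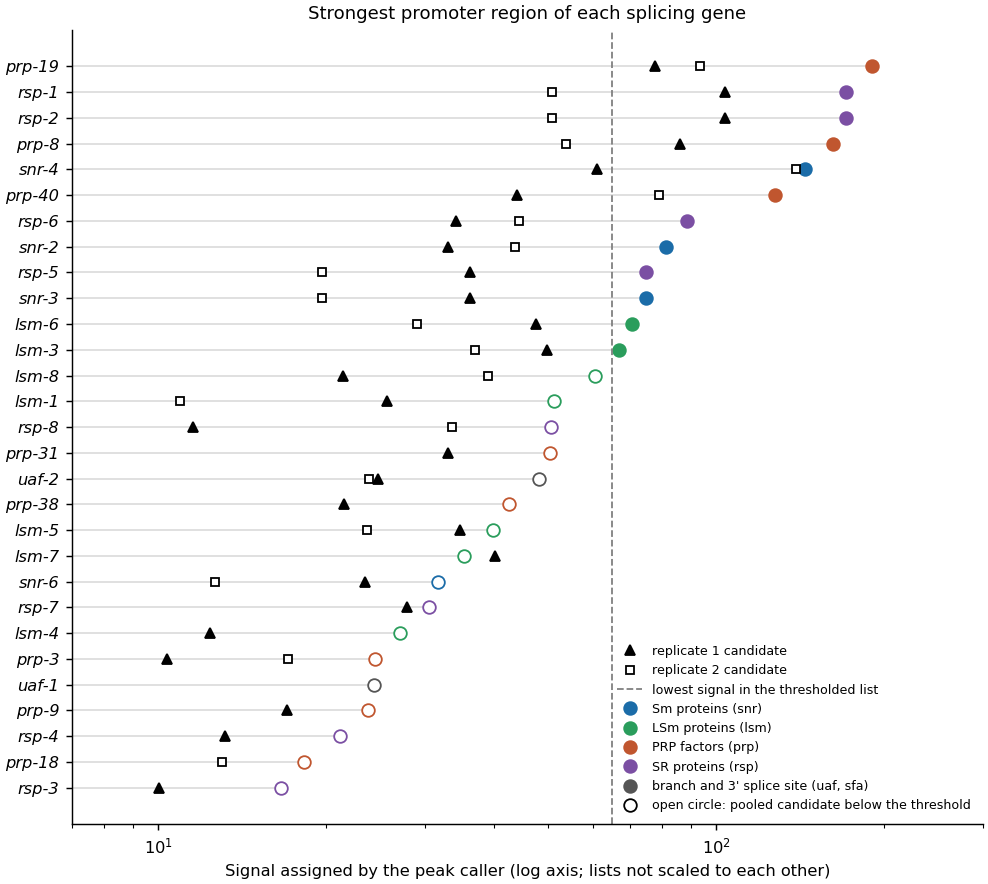
Signal of the strongest promoter region of each of the 29 splicing genes that had one, on a log axis, with filled circles for thresholded peaks, open circles for pooled candidates, triangles for the overlapping replicate 1 candidate and squares for that of replicate 2. The dashed line marks the lowest signal of the thresholded list, 65.0, and prp-19 is at the top with 190. The lists are not scaled to each other.

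The PRP genes held the strongest peak of all splicing genes and also most of the genes without any region. The gene prp-19, for a ubiquitin ligase of the spliceosome and the core of the complex named after it, had a signal of 190 (rank 226; chrIII:5172631-5172763), with 77.5 in replicate 1 and 93.4 in replicate 2. Its ranks in the replicates were 434 and 243, so it was among the stronger regions of both. The summit lay 669 bp upstream of prp-19, but only 6 bp upstream of the divergent gene K10D2.5, and it was also within the window of emb-1. The lists cannot tell which of these genes a shared peak belongs to.

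The gene prp-8, for the central scaffold of the catalytic core, had a signal of 162 (rank 341; chrIII:8164026-8164107) at 317 bp upstream, with 86.2 in replicate 1 and 53.7 in replicate 2. This region was the narrowest of the 10, at 82 bp, and replicate 2 placed its summit at the same 317 bp. The gene prp-40, for a factor of the U1 snRNP, had a signal of 128 (rank 541; chrIII:9521843-9521938) at 155 bp upstream, with 43.8 in replicate 1 and 78.8 in replicate 2. The prp-8 peak lay also 673 bp upstream of bath-42, and the prp-40 peak 460 bp upstream of clu-1, both divergent neighbours. All 3 PRP peaks touched one of the strongest 1980 candidates in each replicate, which a shared 1 bp was enough for.

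Of the other 10 PRP genes, 5 had a candidate only. The gene prp-31, for a factor of the tri-snRNP, had a candidate of 50.3 at 188 bp upstream, with 33.1 in replicate 1 and no overlapping candidate in replicate 2, and shared it with mat-1. The gene prp-38, for a factor needed to activate the spliceosome, had 42.5 at 65 bp downstream of its start, with 21.5 in replicate 1 and none in replicate 2. The candidates of prp-3, prp-9 and prp-18 had signals of 24.5, 23.8 and 18.2. No pooled candidate fell in the windows of prp-4, prp-6, prp-17, prp-21 and prp-39, and their nearest pooled summits lay between 422 bp (prp-39, downstream) and 3077 bp (prp-17) from a start. The lists of single replicates held weak candidates at 3 of them: replicate 1 had 16.1 at prp-4 and 16.5 at prp-6, and replicate 2 had 12.7 at prp-39.

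Among the SR genes, 3 distinct peaks covered 4 genes. The genes rsp-1 and rsp-2 are transcribed away from each other with 406 bp between their starts, and 1 peak lay between them (chrII:11453134-11453266), with a signal of 171 (rank 298). Its signals were 104 in replicate 1, rank 214, and 50.8 in replicate 2, rank 870, the largest excess of replicate 1 among the 10 peaks, at 2.04 times. The summit lay 154 bp upstream of rsp-1 and 253 bp upstream of rsp-2. The second such pair was rsp-5 with the Sm gene snr-3, with 403 bp between the starts and the summit 208 bp and 196 bp upstream of them.

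The gene rsp-6, for a small SR protein, had a signal of 88.8 (rank 1103; chrIV:7791280-7791559) at 191 bp upstream, with 34.2 in replicate 1 and 44.3 in replicate 2. Replicate 1 ranked it 2300, just outside its strongest 1980, and replicate 2 ranked it 1116. The other 4 SR genes had candidates only. The rsp-8 candidate had a signal of 50.5, with 11.5 in replicate 1 and 33.6 in replicate 2. It lay 965 bp upstream of an internal start, in a coding exon of rsp-8 that is 2572 bp downstream of the 5′ end of the gene. The rsp-7 candidate had 30.6 at 291 bp upstream, with 27.9 in replicate 1 and none in replicate 2, in a region shared with snu-13, itself a gene for a snRNP protein. The candidates of rsp-4, for the SC35 relative, and rsp-3, for the SF2/ASF relative, were among the weakest, at 21.2 and 16.6.

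The genes uaf-1 and uaf-2 encode the large and small subunits of U2AF, which binds the 3′ splice site, and sfa-1 encodes SF1, which binds the branch point. The uaf-2 candidate had a signal of 48.1 at 4 bp upstream of a start, with 24.8 in replicate 1 and 23.8 in replicate 2, the closest match between replicates among the candidates. The uaf-1 candidate had 24.3 and overlapped a candidate of neither replicate. No pooled candidate lay in the sfa-1 window, the nearest being 2006 bp away. Each replicate list held a region there, at different places: replicate 1 had 9.06 at 149 bp downstream of the start, and replicate 2 had 23.5 (rank 4512) at 345 bp upstream.

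Over all 17 genes with a candidate only, signals ran from 16.6 to 60.5 with a median of 31.8. The region overlapped a candidate of both replicates at 7 genes, of 1 replicate at 9 genes and of neither at 1. The -log10 q value that accompanies each region reached its ceiling of 2.43 at 5 of them, as it did at all 12 genes with a thresholded peak.

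The 10 thresholded peaks were of middling strength. Their signals ran from 66.9 to 190 with a median of 108, against a median of 94.2 over nuclear peaks and 97.4 over the 1028 peaks in a promoter window. Of the 10, 5 were above the nuclear median, 5 were within the stronger 990 peaks, and 0 were in the top 100. The ratio of replicate 1 to replicate 2 signal ran from 0.441 at snr-4 to 2.04 at rsp-1 and rsp-2, with a median of 1.09, which was also the median of the 1886 nuclear peaks with a candidate in both. At snr-4 the candidates compared had summits at 543 bp and 671 bp upstream. At lsm-3 they lay at 177 bp and 342 bp upstream, and at rsp-6 at 192 bp and 85 bp. The ratios at these genes set unlike positions side by side. Replicate 1 was higher at 5 peaks and replicate 2 at 5, so the direction was evenly split. None of the 10 summits was within 100 bp of a gene for a snRNA, snoRNA or tRNA. Of the 1965 nuclear peaks 371 were, but these include peaks outside the promoter windows of protein-coding genes. Without the peaks near such small RNA genes, 1230 of the 1343 protein-coding genes with a thresholded promoter peak still had one.

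**Figure D3:**
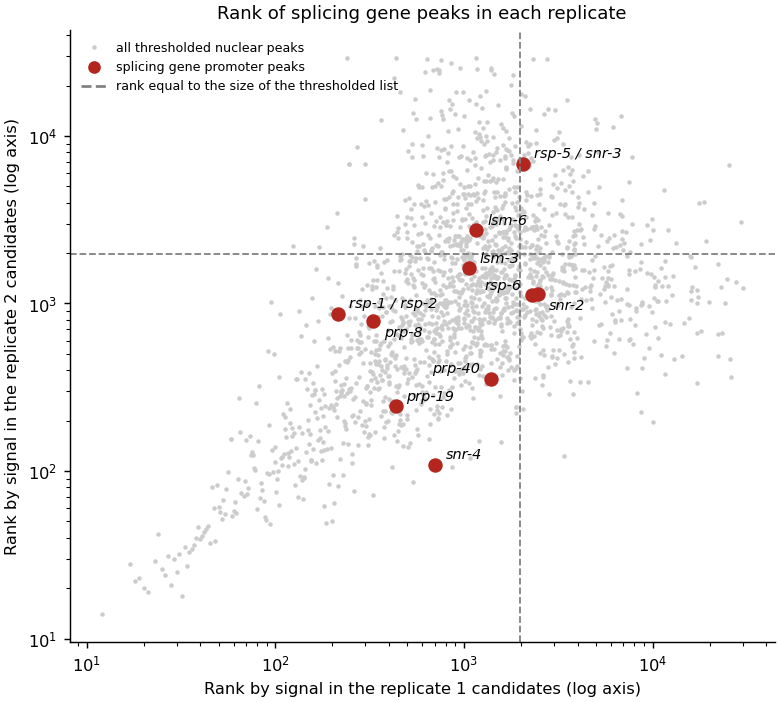
Rank by signal in the replicate 1 candidates (x axis) and replicate 2 candidates (y axis), both on log axes, for the thresholded nuclear peaks that overlap a candidate in both (grey) and the 10 splicing gene peaks (red). The dashed lines mark rank 1980, and 6 of the 10 peaks lie within both lines, while the rsp-5 and snr-3 peak lies outside both.

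All 12 genes had their summit upstream of the nearest of their own starts, at 154 bp to 669 bp and a median of 203.5 bp. Over the 1343 protein-coding genes with a thresholded peak, 93.0% had an upstream summit and the median distance was 238 bp upstream. Of the splicing genes, 10 of 12 fell between 150 bp and 400 bp upstream, against 39.8% of the 1343 genes, a band that was chosen after the distances were seen. The exceptions were prp-19 and snr-4, at 669 bp and 655 bp. Candidates below the threshold were more spread, from 965 bp upstream at rsp-8 to 171 bp downstream at lsm-8. Of the 10 thresholded summits, 9 were intergenic and 1, at lsm-3, was in an intron.

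**Figure D4:**
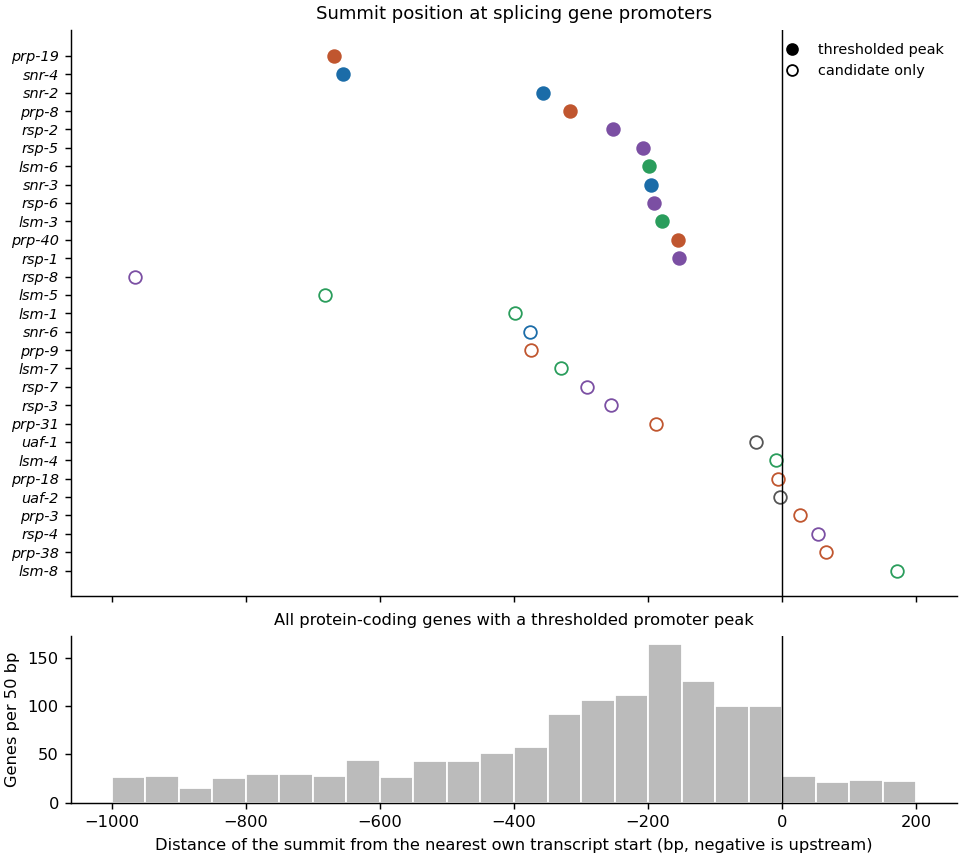
Distance of the summit from the nearest own transcript start, in bp with negative values upstream, for each splicing gene with a thresholded peak (filled) or a candidate only (open), coloured by family as in the plot of signals. The lower panel is a histogram of the 1343 protein-coding genes with a thresholded peak, and 10 of the 12 filled points lie between 150 bp and 400 bp upstream.

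How the genes lie on the chromosomes bears on what a promoter peak can be assigned to. The classes used here were chosen after values had been seen: head-to-head, for an upstream neighbour on the opposite strand with at most 1000 bp between the gene starts, and tandem, for an upstream neighbour on the same strand that ends within 500 bp. Overlapping neighbours, with a negative gap, were included in both classes. Among the splicing genes these were lsm-4 with ada-2 (-905 bp, head-to-head), lsm-3 with mdt-9 (-159 bp, tandem) and rsp-4 with ndx-6 (-8 bp, tandem). Of the splicing genes, 23 of 38 were head-to-head (60.5%), against 19.6% of all protein-coding genes. Within that class 8 of 23 splicing genes had a thresholded peak (34.8%, interval 18.8% to 55.1%), against 13.3% of all head-to-head genes. All 8 shared the peak with the divergent neighbour, as did 93.5% of the 523 head-to-head genes with a peak. The part of this arrangement in the share of splicing genes with a peak was not tested.

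In tandem, 3 of 10 splicing genes had a thresholded peak (lsm-3, lsm-6 and rsp-6), against 6.6% of all tandem genes, and 1 of the 5 in neither class did (snr-4), against 4.6%. In C. elegans, closely spaced genes on the same strand can be transcribed together as an operon, and which of these genes are in one was not analysed here. Of the 10 tandem splicing genes, 6 had an upstream neighbour with a thresholded promoter peak of its own, against 10.8% of all 4062 tandem genes. The strongest was at plrg-1, itself a gene of the PRP-19 complex, with a signal of 201 (122 in replicate 1 and 75.7 in replicate 2), upstream of prp-38. The peak at sqd-1, upstream of lsm-8, had 158, with 76.0 in replicate 1 and 90.7 in replicate 2, and that at acs-2, upstream of lsm-5, had 139, with 95.5 and 52.3. Lower signals were found at hmgs-1 (96.9, upstream of prp-39), ndx-6 (96.1, upstream of rsp-4) and ubc-3 (75.7, upstream of lsm-6). Of these 6 splicing genes, only lsm-6 had a thresholded peak in its own window.

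Other genes of RNA processing, taken from lists by symbol, had a thresholded peak at shares from 14.3% to 28.6%, beside 31.6% of the 38 genes and 6.72% of all genes, with no test of the difference. Of 49 other spliceosome genes that were matched, 7 had a thresholded peak: mog-4 (signal 232), plrg-1 (201), cyn-10 (116), usp-39 (92.6), sftb-1 (74.4), syf-2 (71.0) and cwc-15 (68.4). Of 7 genes for snRNP assembly and the cap, 2 did: prmt-5 (132), an arginine methyltransferase that modifies Sm proteins, and tgs-1 (71.6), which trimethylates the cap of snRNAs. Of 33 splicing regulators and hnRNP genes, 5 did: hrpr-1 (152), spk-1 (94.3), a kinase of SR proteins, hrpu-2 (78.7), hrpk-1 (75.9) and hrpa-1 (72.7). Of 14 exon junction and export genes, 4 did: thoc-7 (120), thoc-5 (114), acin-1 (108) and nxf-1 (85.6), the mRNA exporter. Fewer genes of these lists had a strongest peak that overlapped a candidate among the strongest 1980 of each replicate, as 3.84% of all genes did. These were 4 of 49 other spliceosome genes (8.16%) and 1 of 7 assembly and cap genes (14.3%). Of the regulator and hnRNP genes it was 1 of 33 (3.03%), and of the exon junction and export genes 3 of 14 (21.4%). For scale, 40 of 77 ribosomal protein genes (51.9%, interval 41.0% to 62.7%) and 9 of 33 proteasome genes (27.3%, interval 15.1% to 44.2%) had a thresholded peak. The strongest peak overlapped a strong candidate of each replicate at 35 of 77 (45.5%) and 4 of 33 (12.1%) of them, beside 18.4% of the 38 genes. The median signal of the ribosomal protein peaks was 136 and that of the proteasome peaks 90.5, above and below the 108 of the splicing genes.

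The 38 genes lay on every autosome and none was on X, which holds 2731 of the protein-coding genes. Thresholded peaks were found at 2 of 6 splicing genes on chromosome I, 4 of 10 on II, 3 of 9 on III, 2 of 8 on IV and 1 of 5 on V.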

How the data were processed

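The deposited files are lists of regions for each replicate, for pooled replicates and after a threshold on irreproducible discovery rate (IDR), as the deposited README files state. The signal of each region and its -log10 q-value are as deposited by the authors. The sources used here do not give the aligner, the caller, tool versions or the value of the IDR cut. Peak calling drew on a control library, per the deposited README files, which was not analysed here. The ce11 lists were used with the WBcel235 genome and Ensembl release 115, no coordinates were converted, and the ce10 lists were not used. A replicate's value at a peak is its strongest candidate overlapping by at least 1 bp. Every gene of the 38 may be named, those with a candidate only by the 10 strongest in full, and listed genes with a thresholded peak up to 12 a list. The genes and lists were chosen with earlier results of these data known. With 1 group of 2 replicates no test was made. Assignment of peaks to starts was tested on simulated data. Alternatives changed the promoter window, summit rule, starts used, genes per peak, list depth, replicate overlap and replicates used. The tools were pandas 2.3.3, numpy 2.4.6 and matplotlib 3.10.9 under Python 3.11.15.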

Additional observations from a re-analysis of the deposited data

How the results depend on the processing

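Over 7 results and 10 settings, 33 of 39 alternative values were within the limit set for them and 6 moved. The limit was 1.5 times for counts and for the ratio of replicates, and the spread between replicates for the median signal (1.72) and the median distance (28.3 bp). With only the stronger 990 thresholded peaks, 6 splicing genes were called (15.8%, against 3.8% of all protein-coding genes), 3 genes of the other spliceosome list were called, the median signal was 162, the median distance was -285 bp and the median ratio of replicate 1 to replicate 2 was 0.830, on the other side of 1 from the reported 1.09. With only the longest transcript of each gene the median signal was 128. With a reciprocal overlap of 50%, 2 splicing genes in place of 7 matched a strong candidate of both replicates (5.26%, against 2.54% of all genes). The peaks of prp-8, prp-19 and prp-40 were too narrow to meet that rule. Counting each peak for its nearest gene only left 8 splicing genes (21.1%, against 5.17% of all genes), losing prp-19, rsp-2, rsp-5 and snr-2, and the median ratio was 1.48. Each replicate's own list gave 10 genes. Depth in reads is unknown, the signals are not scaled between lists, and 38 genes limit every share to a wide interval. No paired analysis was possible because there is 1 group and no result comes from a test.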
